A study of Homo sapiens with 6 samples.

Results

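The circular RNAs (circRNAs) described here are those measured by the array probes ASCRP003718 and ASCRP003719, which carry neighbouring probe numbers. They are 2 of the 5397 circRNA probes on the array. They were chosen by the difference between sorafenib-resistant and parental HepG2 cells measured on these arrays, both being higher in resistant cells and well above background on all 6 arrays, so the difference between the groups is given as a description, with no test.

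RNA came from 3 samples of parental HepG2, an established line of human liver cancer cells, and from 3 samples of HepG2-SR, the line derived from it by culture in rising doses of sorafenib. The labels give the same treatment for all 6 samples, 7 µM sorafenib for 48 h, for parental and resistant cells alike, while the array methods do not mention this treatment. Whether the parental cells had received the drug is therefore not settled here. Each sample was hybridized to 1 Arraystar human circRNA array in 1 colour. The sources do not say whether the samples of a group were separate cultures, or whether HepG2-SR is 1 clone, so the spread between arrays may be partly technical.

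A circRNA forms when the end of an exon is spliced back to the start of the same or an earlier exon, which closes the RNA into a loop without free ends. The loop resists RNase R, an enzyme that digests linear RNA from its end, and the RNA was treated with RNase R before labelling. A probe for a circRNA is designed against the splice site where the ends meet. Sorafenib is a kinase inhibitor used against advanced liver cancer. The files used here give both probes by ID only, without circRNA name, host gene or sequence, so nothing is said here on their hosts, and it is not known whether the probes share a host gene or part of their sequence. For the same reason the HepG2 label was not set against liver markers.

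Between 37.3% (HepG2-SR replicate 3) and 76.1% (parental replicate 3) of the circRNA probes of an array were well above background. HepG2-SR replicate 3 was the dimmest array, with a median log2 signal of 2.71 where the other 5 arrays had 3.73 to 4.91. Parental replicate 1 and HepG2-SR replicate 3 were scanned in 1 session and the other 4 arrays in another. Over the 3610 probes tested, limma called 0 at an adjusted p under 0.05, with 210 at an unadjusted p under 0.05. Without HepG2-SR replicate 3 it called 2 at the adjusted threshold. With 3 arrays against 3, the smallest two-sided p an exact permutation test allows is 0.1.

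Before any scaling between arrays, ASCRP003718 was brightest on HepG2-SR replicates 1 and 2. The processed signal is the value that the software gives for a spot after its corrections, background subtraction among them. It is not simply the raw median brightness less background, since 1 spot on HepG2-SR replicate 1 had 732 where that brightness was 686.5. The median of the processed signal over the 3 spots was 798 on HepG2-SR replicate 1, 369 on replicate 2 and 88.5 on replicate 3. On the parental arrays the medians were 45.8, 119 and 57.0 for replicates 1, 2 and 3. HepG2-SR replicates 1 and 2 lay above every parental array, whereas the dim HepG2-SR replicate 3 lay between parental replicates 3 and 2. Of the 9 pairs of a HepG2-SR with a parental array, 8 had the higher signal in HepG2-SR.

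ASCRP003719 had lower processed signals that followed the same order within each group. The medians over its 3 spots were 281, 133 and 22.6 on HepG2-SR replicates 1, 2 and 3, and 24.3, 57.2 and 32.9 on the parental arrays. Without scaling, HepG2-SR replicate 3 thus had about the signal of parental replicate 1, with mean log2 values of 4.57 on both arrays. By these means, 7 of the 9 pairs were higher in HepG2-SR. That count includes this near tie, which goes the other way by the medians. The groups of both probes overlapped at this stage through HepG2-SR replicate 3 alone.

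**Figure D1:**
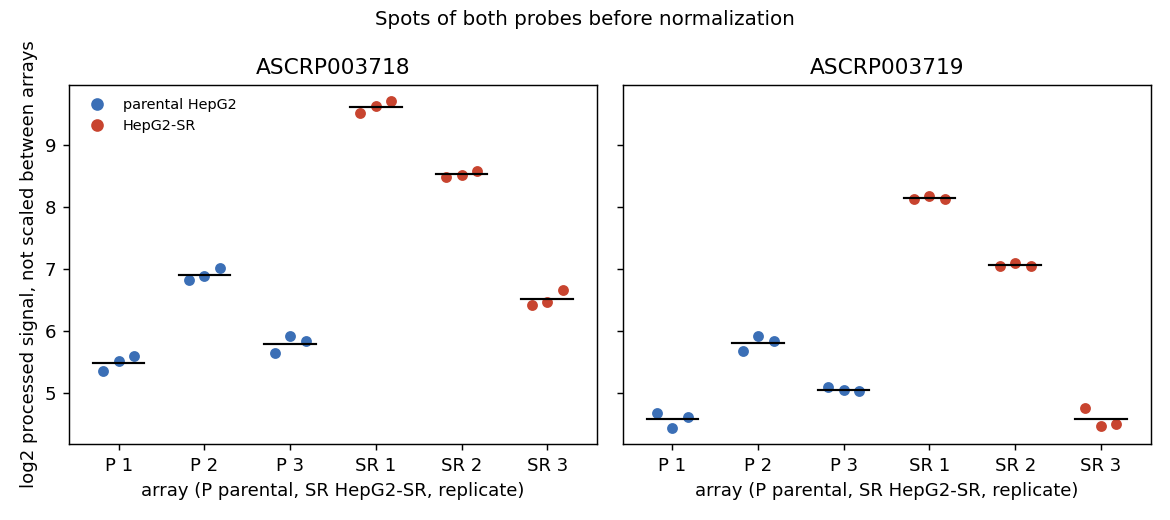
Log2 processed signal, not scaled between arrays, of each of the 3 spots (points) and their mean (line) for both probes on the 3 parental (P) and 3 HepG2-SR (SR) arrays. The spots of an array lie close together, and SR 3 falls among the parental arrays while SR 1 and SR 2 lie above them.

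The flags, the agreement between spots and the brightness over background describe how the spots were measured. All 36 spots of both probes were well above background, 0 were saturated and 0 were marked as outliers, while 1 spot of ASCRP003718 on parental replicate 1 had a local background marked as outlying. On a single array, the 3 spots of either probe had an SD of 0.03 to 0.15 in log2 units. The median of this SD over the probes well above background on all 6 arrays was 0.05 to 0.10, depending on the array. The error that the software gives for a spot was 10.0% to 14.9% of its signal. The raw brightness was 2.56 to 43.3 times the local background. The lowest of these ratios belonged to ASCRP003719 on HepG2-SR replicate 3, and on parental replicate 1 that probe reached 2.63 to 3.09 times background. On the spot with the lowest ratio the raw brightness was 64 and the processed signal 22.1. The processed signal of the array's negative control spots had medians of at most 2.39, below every spot of both probes.

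The values were then averaged over spots on the log2 scale and quantile normalized, a step that forces all arrays to share 1 distribution. ASCRP003718 then had 5.72, 6.05 and 5.49 on parental replicates 1, 2 and 3, and 9.23, 8.48 and 7.61 on HepG2-SR replicates 1, 2 and 3. After this scaling every HepG2-SR array lay above every parental array. The means were 5.75 ± 0.28 in parental and 8.44 ± 0.81 in HepG2-SR cells (SD, n = 3 each), a log2 difference of 2.69 (standard error 0.44 from limma), or 6.44-fold.

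ASCRP003719 had normalized log2 values of 4.79, 4.90 and 4.69 on the parental arrays, and 7.78, 7.12 and 5.85 on HepG2-SR replicates 1, 2 and 3. Its groups did not overlap either, with a gap of 0.95 between the highest parental and the lowest HepG2-SR array, where that of ASCRP003718 was 1.57. The means were 4.79 ± 0.10 and 6.91 ± 0.98 (SD, n = 3 each), a log2 difference of 2.12 (standard error 0.49 from limma), or 4.35-fold. Of all probes tested, 7.78% had all HepG2-SR arrays above all parental arrays and 2.02% had means more than 2-fold higher in HepG2-SR. A fold change over 2 together with an unadjusted p under 0.05 in limma was met by 1.33% in the same direction. In these normalized values both probes met the first 2 of these conditions, which rest on the difference they were chosen for. The third is not given for them, because it holds a test. Among the 1916 probes well above background on all 6 arrays, these were the largest and the second largest of 42 rises over 2-fold, and among all 3610 tested probes they ranked 4 and 6. The place of ASCRP003719 depended on the processing, since among the 1916 probes it ranked 10 in the authors' values, 12 with the normexp correction described below and 4 with no background correction, while ASCRP003718 ranked 1 in each of these. The median log2 difference of the tested probes was -0.01.

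**Figure D2:**
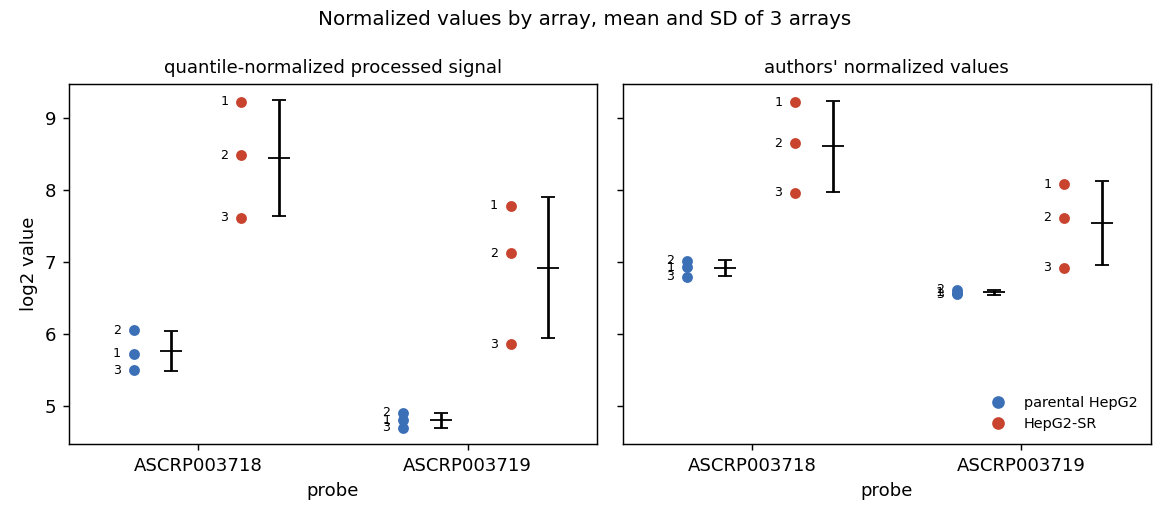
Log2 values of both probes on each array (points, numbered by replicate), with the mean and SD of 3 arrays per group (bars), for the quantile-normalized processed signal (left) and the authors' normalized values (right). The HepG2-SR arrays lie above the parental arrays for both probes on both scales, and the differences are smaller in the authors' values.

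The size of the rise differed between ways of processing the arrays. In the authors' own normalized log2 values, ASCRP003718 had 6.92, 7.01 and 6.79 on the parental arrays and 9.22, 8.65 and 7.96 on the HepG2-SR arrays, a difference of 1.70 or 3.25-fold. ASCRP003719 had 6.57, 6.61 and 6.55 on the parental arrays and 8.08, 7.61 and 6.91 on the HepG2-SR arrays, a difference of 0.96 or 1.95-fold, which falls short of 2-fold. The groups of both probes stayed apart in these values, with a gap of 0.31 for ASCRP003719. The parental values were the ones that moved most between the scales, since the HepG2-SR mean of ASCRP003718 was 8.61 in the authors' values and 8.44 after quantile normalization of the processed signal. The background correction behind the authors' values is not given in the sources used here, so its part in their smaller differences was not tested. With the raw brightness of the deposited intensities and no background correction the rises were 4.07-fold and 2.47-fold, and with the normexp correction, which here adds an offset of 50, they were 2.93-fold and 1.87-fold. In these 2 settings, a constant left in or added to all intensities lowers the fold change of dim signals by construction. Whether the authors' values hold such a constant is not known here.

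Scaling between arrays decided whether the groups overlapped, but not the direction of the difference of the means. Scaled to the 75th percentile of each array, the rises were 6.83-fold and 4.18-fold, with 9 of 9 pairs higher in HepG2-SR for each probe. With no scaling they were 2.16 and 1.45 on the log2 scale, while the median difference over all tested probes was -0.63. Relative to that median the rises were 2.80 and 2.09. Within each group the unscaled values of both probes followed the order of the arrays' median signal. Between the groups, the median difference and the differences of both probes had opposite signs. The part of array brightness in the unscaled values was not tested beyond these scalings.

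**Figure D3:**
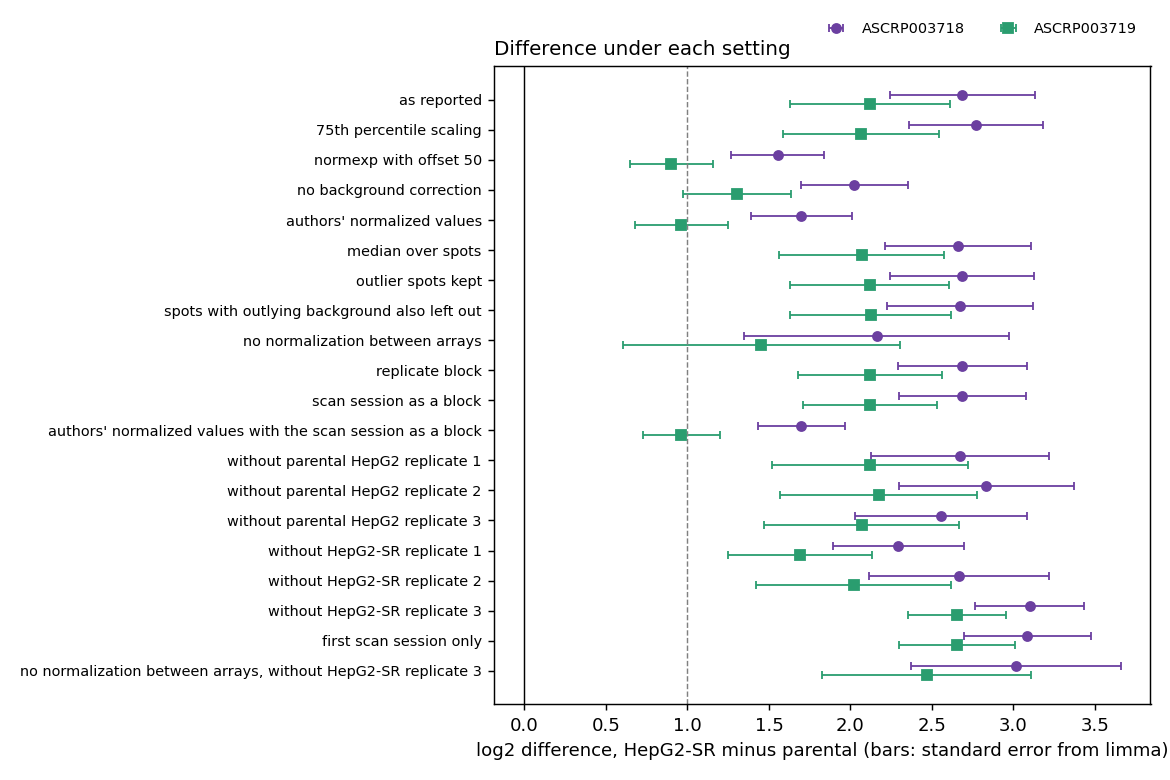
Log2 difference between HepG2-SR and parental means (points) with its standard error from limma (bars) for both probes under the reported and each other setting. The solid line marks no difference and the dashed line a 2-fold rise, and all values lie to the right of 0, with those of ASCRP003719 closest to the dashed line in the authors' values (0.96) and with normexp (0.90).

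Within HepG2-SR cells the arrays differed widely. Relative to the parental mean, ASCRP003718 was 3.47, 2.73 and 1.86 higher on the log2 scale on HepG2-SR replicates 1, 2 and 3. ASCRP003719 was 2.98, 2.32 and 1.06 higher on the same arrays. The lowest HepG2-SR value of each probe was thus that of the dimmest array. The SD between HepG2-SR arrays exceeded that of 84.8% and 91.5% of the probes well above background on all 6 arrays for ASCRP003718 and ASCRP003719, against 44.7% and 9.03% between parental arrays. The median SD over these probes was 0.43 in HepG2-SR and 0.30 in parental cells. ASCRP003719 thus varied little among parental arrays and much among HepG2-SR arrays.

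After scaling, the rise was present in both scan sessions, and was smaller in the session that held 1 array of each group. In the session of 4 arrays the log2 difference was 3.08 for ASCRP003718 and 2.65 for ASCRP003719. In the other session, which holds parental replicate 1 and HepG2-SR replicate 3, it was 1.89 and 1.06. Since that session has only 1 array per group, the session and HepG2-SR replicate 3 cannot be told apart. The authors' values gave 2.03 and 1.27 in the first of these sessions and 1.04 and 0.35 in the other. With no scaling between arrays, the session with 1 array per group gave 1.03 for ASCRP003718 and 0.00093 for ASCRP003719. Without HepG2-SR replicate 3 the differences over all other arrays were 3.10 and 2.65, and without HepG2-SR replicate 1 they were 2.29 and 1.69.

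Deviations from the group means, which do not use the difference between the groups, were alike in both probes among the HepG2-SR arrays and small among the parental arrays. Deviations of ASCRP003718 from its HepG2-SR mean were 0.79, 0.04 and -0.83 for replicates 1, 2 and 3, and those of ASCRP003719 were 0.86, 0.20 and -1.065. In parental cells the deviations were -0.03, 0.29 and -0.26 for ASCRP003718 and -0.00057, 0.10 and -0.10 for ASCRP003719. On HepG2-SR replicates 1 and 3, which lay farthest from the mean, both probes deviated in the same direction, and ASCRP003719 deviated by more on each of the 3 HepG2-SR arrays, which in the authors' values held for replicate 2 alone. In parental cells the deviations of ASCRP003719 were smaller than those of ASCRP003718. The parental deviations of ASCRP003719 reached 0.10, where the standard error of a mean over 3 spots was up to 0.07, so the parental arrays say little on how far the probes move together. With 3 arrays per group, no correlation is given.

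**Figure D4:**
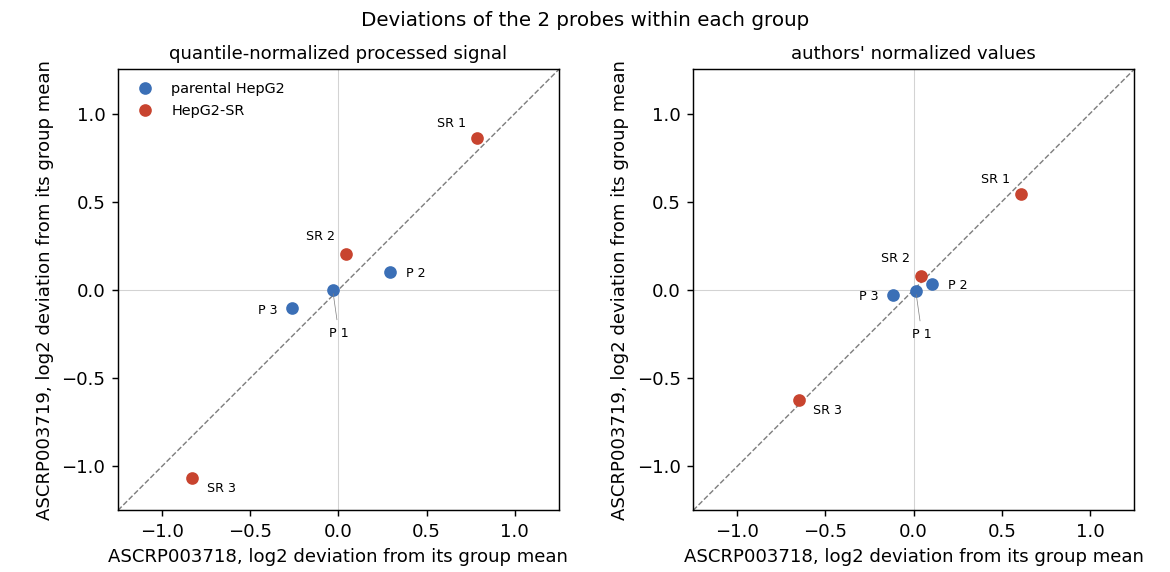
Deviation of ASCRP003719 from its group mean against that of ASCRP003718, in log2 units, for the 3 parental (P) and 3 HepG2-SR (SR) arrays in the quantile-normalized processed signal (left) and the authors' values (right). Points on the dashed line deviate equally in both probes. The HepG2-SR arrays spread along the line, and the parental arrays lie near the centre.

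Among the HepG2-SR arrays the difference between the probes on an array varied less than either probe. Its SD was 0.21 on the log2 scale, against 0.81 for ASCRP003718 and 0.98 for ASCRP003719. Among the parental arrays its SD of 0.18 lay between that of ASCRP003718 (0.28) and that of ASCRP003719 (0.10), so the difference was not steadier than ASCRP003719 there. A variance ratio was formed from the deviations within groups, as the variance of the difference divided by the sum of the variances of both probes, which is 0 for probes that deviate identically and about 1 for unrelated probes. It was 0.04 for this pair, 0.03 over the HepG2-SR arrays alone and 0.35 over the parental arrays alone. In the authors' values it was 0.01 over all arrays, and 0.50 over the parental arrays. Without HepG2-SR replicate 1 it was 0.10, without HepG2-SR replicate 3 it was 0.10, and once the scan session was blocked it was 0.06. ASCRP003718 rose by more than ASCRP003719, by 0.57 on the log2 scale, and by 0.74 in the authors' values.

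Pairs of probes with neighbouring numbers had a lower median variance ratio on this array than pairs further apart. Among the 849 pairs of probes that are 1 number apart and well above background on all 6 arrays, the median variance ratio was 0.71. At 7 larger distances, from 2 to 500 numbers apart, it was 0.90 to 0.97. These are descriptions over pairs that share arrays and partly share probes. Of the 849 neighbouring pairs, 28 had a lower ratio than ASCRP003718 with ASCRP003719. This count was 62 with 75th percentile scaling and 10 in the authors' values. Pairs whose difference between the groups had the same sign made up 65.0% of the 849 neighbouring pairs and 52.1% to 58.9% of those at the larger distances. There were 36 neighbouring pairs with at least 1 probe more than 2-fold higher in HepG2-SR, and in 2 of them, this pair included, both probes were. This pair was chosen for the rise of both probes, so its place among the 2 follows from the choice. At the larger distances 25 to 37 pairs had at least 1 such probe, and 0 or 1 had both. In the authors' values, where ASCRP003719 falls short of 2-fold, 7 neighbouring pairs had at least 1 such probe and 0 had both.

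The numbers on either side did not share the rise. Of the 20 other probes within 10 numbers of the pair, 14 were tested, and their log2 differences ran from -1.28 to 0.44 with a median of -0.18. None of these 14 had all HepG2-SR arrays above all parental arrays. Of all 3610 tested probes 7.78% did, so the count among the 14 is near that share. The probe numbered 1 before ASCRP003718, well above background on 5 arrays, had 5.01 ± 0.23 in parental and 3.73 ± 1.99 in HepG2-SR cells (SD, n = 3 each). The probe numbered 1 after ASCRP003719, well above background on 3 arrays, had 3.05 ± 0.44 and 2.85 ± 0.26. In the authors' values these neighbours differed by -0.17 and -0.03.

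**Figure D5:**
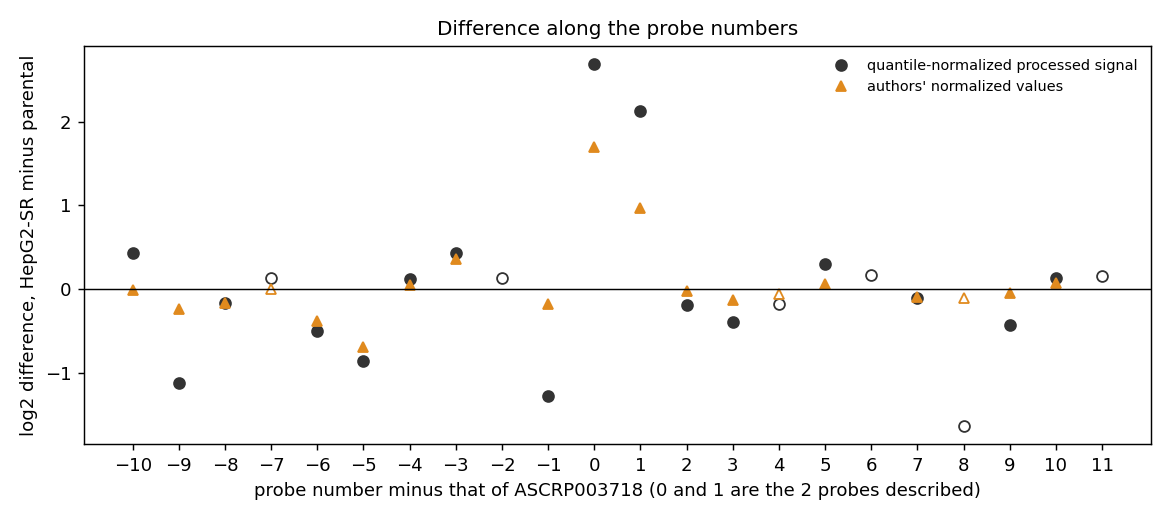
Log2 difference between HepG2-SR and parental means for the probes numbered 10 before to 10 after the pair, in the quantile-normalized processed signal (circles) and the authors' values (triangles). Filled symbols are probes that were tested, and open symbols are probes that were not. The pair at 0 and 1 lies above the probes on either side.

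Over all 6 arrays, the probe most like each of the pair in the processed signal was the other one. Likeness was measured as the root mean square over arrays of the difference between the deviations of 2 probes from their own mean, and was 0.32 on the log2 scale for the pair. This measure holds the difference between the groups for which the pair was chosen. The next 2 probes were the same for both members and lay 129 numbers before and 595 after ASCRP003718, at 0.78 and 0.87 from it and at 0.65 and 0.71 from ASCRP003719. They rose by 1.38 and 1.18 in the processed signal and by 0.37 and 0.60 in the authors' values. When only deviations within groups were used, ASCRP003719 ranked 26 among the 1915 other probes by likeness to ASCRP003718, and ASCRP003718 ranked 20 by likeness to ASCRP003719. In the authors' values both of these ranks were 2, while over all 6 arrays ASCRP003718 ranked only 10 by likeness to ASCRP003719.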

How the data were processed

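Circular RNA was measured on 6 arrays, and groups were taken from the sample labels. The authors deposited scanner output per array from Agilent Feature Extraction (version 11.0.1.1), which holds an intensity per spot that was not normalized between arrays. They also deposited a table of log2 values for 4200 probes, which the methods state were quantile normalized in R. The background correction behind this table is not given in the sources used here.

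From the deposited intensities, a mean log2 processed signal was taken per probe over its spots, without spots marked as outliers, and quantile normalized over 5397 circRNA probes, 4190 of them printed in 3 spots and 1207 in 1. Probes with at least 50% of their spots well above background on at least 3 arrays and a value on all 6 (3610 probes; 13 more lacked a value) were fitted with limma 3.58.1 in R 4.3.3, with no covariate and Benjamini-Hochberg adjustment. The fit and the likeness rank were tested on simulated data. Arrays have no read depth, and the small number of arrays sets the precision.

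The probes, lists and tests were chosen with earlier results of these data known. The named probes are both members, the numbers next to them and the 3 probes most like each, of which only the members are printed by ID because the files do not pair IDs with names. Alternatives were 75th percentile scaling, normexp, no background correction, the authors' values, medians over spots, outlier spots kept, the replicate number or the scan session as a block, other filters, and leaving out each array. The normexp correction used the median brightness of each spot and of its local background.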

Additional observations from a re-analysis of the deposited data

How the results depend on the processing

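The log2 differences of ASCRP003718 and ASCRP003719 stayed above 0 in each of the 19 other settings run, and in 15 of them moved by less than the SD between replicates. These counts include the fits with the replicate number or the scan session as a block. Every such block holds as many parental as HepG2-SR arrays, so blocking cannot change a difference and those fits do not test it. The differences were 1.55 and 0.90 with normexp, 2.02 and 1.31 with no background correction, and 1.70 and 0.96 in the authors' values. Blocking the scan session in the authors' values leaves the differences the same by construction. Leaving out 1 array gave 2.29 to 3.10 and 1.69 to 2.65. The amount by which ASCRP003718 rose more than ASCRP003719 was 0.43 to 0.74 in all settings, and 0.45 to 0.66 with 1 array left out.

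The ranks by likeness within groups, 26 for ASCRP003719 and 20 for ASCRP003718, moved most. They were 90 and 45 with 75th percentile scaling or no scaling, 4 and 8 with normexp, 5 and 7 with no background correction, 2 and 2 in the authors' values, 51 and 43 when the scan session was blocked, 98 and 185 in the scan session of 4 arrays only, and 63 and 87 with no filter on dim probes. Blocking the scan session in the authors' values gave 11 for ASCRP003719. With 1 array left out they ran from 23 to 100 and from 15 to 82, the highest being 100 when HepG2-SR replicate 1 was left out and 82 when HepG2-SR replicate 3 was left out. Apart from the filter, which adds probes, the cause was not tested.

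Of the probes tested, 48 (1.33%) were more than 2-fold higher in HepG2-SR with p under 0.05 before adjustment. The count was 1 with normexp, 3 with no background correction, 1 in the authors' values, 2 in these when the scan session was blocked, 4 with no scaling and 26 when each probe had to be well above background on all 6 arrays. Leaving out 1 array gave 36 to 116, the highest without HepG2-SR replicate 1. All HepG2-SR arrays lay above all parental arrays for 281 probes, for 4 with no scaling, for 700 in the scan session of 4 arrays only and for 355 to 606 with 1 array left out, where fewer arrays make the condition easier to meet.

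Under a replicate block, fitted on the number in the labels, the differences stayed 2.69 and 2.12, as they must when each number holds an array of either group. Their standard errors were 0.39 and 0.44 in place of 0.44 and 0.49, the ranks were 170 and 161, and 47 probes were called. Deviations of same-numbered arrays correlated across probes at -0.25, 0.20 and 0.02, and no array correlated best with its own number. With so few arrays, these correlations cannot decide whether samples of the same number were handled together. The fits with no scaling (also without HepG2-SR replicate 3), to the scan session of 4 arrays only, of the authors' values with the scan as a block, and without spots of outlying background were chosen after seeing the data. Signal limits ASCRP003719 most, at 2.56 to 3.09 times local background in raw brightness on HepG2-SR replicate 3.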
